A study of Mus musculus with 2 samples.

Results

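The 9 genes described here are members of the Ms4a family that were picked by gene symbol, Ms4a1, Ms4a3, Ms4a4a, Ms4a4b, Ms4a4c, Ms4a6b, Ms4a6c, Ms4a6d and Ms4a7, out of 32285 genes counted in each library. All 9 were found. They were measured by droplet single-cell RNA sequencing of CD45low CD11b+ cells sorted from the brains of male mice aged 23 weeks, either Disc1 WT/WT littermates or Disc1 LI/LI mice, which are homozygous for the Disc1 locus impairment (LI) allele. Both genotypes received actinomycin D during dissociation, a transcription blocker that limits changes in RNA while the tissue is handled. The brains of 6 mice were pooled per genotype and gave 1 library each, so mice could not be told apart and no difference between genotypes could be tested. Every interval below covers the error of counting molecules in these libraries and not the spread between mice.

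MS4A proteins cross the membrane several times with both ends inside the cell, and several of them sit beside immune receptors and tune their signals. Ms4a1 encodes CD20 of B cells, Ms4a3 marks granulocyte and monocyte progenitors in bone marrow, Ms4a4b is made by T cells and natural killer (NK) cells, and Ms4a7 and Ms4a4a are macrophage genes. The human MS4A locus is known from the genetics of Alzheimer's disease, and microglia and macrophages are the brain cells in which its myeloid members are usually studied.

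In mm10, the mouse build used for the counts, the members lie between 11249675 and 11640851 on chromosome 19, a stretch of 391177 bases with 14 protein-coding genes. The other genes inside are Ms4a2, Ms4a4d, Ms4a5, Ms4a14 and Gm8369. Ms4a1, Ms4a7, Ms4a6d and Ms4a3 are on the minus strand, and the 3 Ms4a4 genes, Ms4a6c and Ms4a6b are on the plus strand. Ms4a1, Ms4a4c, Ms4a6c and Ms4a6b each overlap an annotated transcript or pseudogene on the other strand.

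Promoter windows of RefSeq (GRCm38.p6, the same build, 250 bases before to 50 after the start site, both alleles of the study sharing this reference) were found for 7 of the 9 members, 8 windows in all. Ms4a6c and Ms4a6b are shown because a larger share of their alignment was identical than for any other pair and because both genes were read in microglia and at higher levels in Ly6c2 Ccr2 cells. Over the best alignment, with overhanging ends left free, 194 of 236 columns were identical (82.2%). Capitals mark an IRF type match, searched as GAAANNGAA, and ETS type matches, searched as AGGAAGT, on either strand, where N is any base.
Ms4a6c, chr19:11469118-11469417 (+): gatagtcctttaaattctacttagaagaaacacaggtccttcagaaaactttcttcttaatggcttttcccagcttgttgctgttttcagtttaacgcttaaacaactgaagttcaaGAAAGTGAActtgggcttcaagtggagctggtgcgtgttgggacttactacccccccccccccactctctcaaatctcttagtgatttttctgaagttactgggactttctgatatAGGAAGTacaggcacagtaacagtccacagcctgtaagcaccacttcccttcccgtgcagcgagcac
Ms4a6b, chr19:11518309-11518608 (+): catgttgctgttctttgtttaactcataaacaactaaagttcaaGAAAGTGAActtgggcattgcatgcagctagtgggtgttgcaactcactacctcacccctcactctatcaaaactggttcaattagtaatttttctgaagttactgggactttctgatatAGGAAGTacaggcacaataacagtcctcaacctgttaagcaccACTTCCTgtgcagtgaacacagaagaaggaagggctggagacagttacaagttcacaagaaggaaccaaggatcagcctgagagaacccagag
Positions are counted from the start site. The IRF type letters lie at -133 to -125 in Ms4a6c and at -206 to -198 in Ms4a6b, and the ETS type letters at -17 to -11 in Ms4a6c and at -86 to -80 in Ms4a6b, where the minus strand holds a further match at -43 to -37. Among 32851 mouse promoter windows of this length, 9.35% held the ETS type letters, 8.56% the IRF type letters and 0.837% both. Both windows of Ms4a7 also held the IRF type letters.

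Ms4a4c and Ms4a4b are shown because their windows are nearly as alike, with 234 of 312 aligned columns identical (75.0%), while the 2 genes were read in different cells. None of the IRF, ETS or CEBP type letters was present in either window, so neither has capitals, and Ms4a4b holds TATAAA at -140 to -135, which 13.6% of the windows hold.
Ms4a4c, chr19:11407411-11407710 (+): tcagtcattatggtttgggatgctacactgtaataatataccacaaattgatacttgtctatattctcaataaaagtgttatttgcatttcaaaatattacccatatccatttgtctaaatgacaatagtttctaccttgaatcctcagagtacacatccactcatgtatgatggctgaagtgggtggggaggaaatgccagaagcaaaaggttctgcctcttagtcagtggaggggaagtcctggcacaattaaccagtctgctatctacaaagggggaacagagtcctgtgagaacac
Ms4a4b, chr19:11443308-11443607 (+): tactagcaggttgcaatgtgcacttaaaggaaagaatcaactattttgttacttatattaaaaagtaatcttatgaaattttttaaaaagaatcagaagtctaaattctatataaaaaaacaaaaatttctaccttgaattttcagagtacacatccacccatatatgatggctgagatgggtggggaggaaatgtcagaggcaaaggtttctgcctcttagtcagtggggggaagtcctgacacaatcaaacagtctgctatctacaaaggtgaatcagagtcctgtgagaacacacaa
Ms4a3 is shown because it was read with the primary granule genes of neutrophil precursors. Its capitals mark a CEBP type match, searched as TTGCNNAA and present in 10.8% of the windows, at +42 to +49 on the gene's own strand.
Ms4a3, chr19:11640802-11641101 (-): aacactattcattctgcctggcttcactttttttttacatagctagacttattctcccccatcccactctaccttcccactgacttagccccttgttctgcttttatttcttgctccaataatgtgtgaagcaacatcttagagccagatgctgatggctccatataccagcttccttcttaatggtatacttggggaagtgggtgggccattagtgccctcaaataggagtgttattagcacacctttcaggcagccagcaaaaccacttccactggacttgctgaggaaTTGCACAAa
A match is a run of letters and no evidence that a factor binds there.

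After filtering, the Disc1 WT/WT library had 7032 cells and the Disc1 LI/LI library 7817, with 33591758 and 47689834 unique molecular identifiers (UMIs, 1 per captured transcript) and medians of 4234.5 and 4566 per cell. Disc1 itself had 642 UMIs in the Disc1 WT/WT library and 22 in the Disc1 LI/LI library. Cells were classed by fixed shares of marker UMIs, and the classes differed widely in size between the libraries. Microglia were 87.9% of cells in the Disc1 WT/WT library (6180) and 24.9% in the Disc1 LI/LI library (1950), although both samples are labelled microglia. Neutrophils numbered 116 and 3622, progenitors with primary granule genes 7 and 166, monocyte-like cells with both Ly6c2 and Ccr2 41 and 1120, and all other cells 688 and 959. Of marker genes that the classes did not use, 8 of 8 were higher in microglia than in all other cells in each library, as were 9 of 9 in neutrophils. In progenitors 5 of 8 were in Disc1 WT/WT, where Kit and Flt3 were at 0, and 6 of 8 in Disc1 LI/LI, and in Ly6c2 Ccr2 cells 8 of 8 and 5 of 8. The other cells were split by their markers into B, T, NK, border macrophage, nonclassical monocyte, major histocompatibility complex (MHC) class II-high and erythroid cells and a remainder. Doublets were not removed, 12 barcodes occurred in both libraries, and the labels do not say which of 2 droplet chips served each library, so the chip and the genotype cannot be told apart.

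Levels are given in CPM, which scales a gene's summed UMIs to 1000000 UMIs of its class, which compares 1 gene between cells. The reads come from transcript 3′ ends, so a level does not grow with gene length, but capture can differ between genes. A class cut from such shares is a range and not a type. Within 1.5-fold above the microglia threshold lay 639 Disc1 WT/WT and 327 Disc1 LI/LI microglia, and 197 and 171 cells lay as close below it. The microglia genes took a median of 1.17% and 1.09% of UMIs in microglia, where the neutrophil genes S100a8 and S100a9 took 0 and 0.0639%.

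Taken as a family, the 9 genes came to 474 CPM in Disc1 WT/WT microglia and 556 in Disc1 LI/LI microglia, and 79.1% and 81.1% of microglia held a UMI of at least 1 member. Nearly all of these UMIs came from the 3 Ms4a6 genes. Ms4a6b gave 43.5% and 37.9% of them, Ms4a6d 34.3% and 36.4%, and Ms4a6c 17.2% and 19.2%. The make-up was different in each class of cells. In Ly6c2 Ccr2 cells the family came to 2801 and 3161 CPM, of which Ms4a6c gave 51.4% and 56.1%, Ms4a6b 19.9% and 18.8% and Ms4a4c 16.8% and 17.1%. Ms4a7 gave 27.5% and 23.4% of the family in border macrophages, and 38.8% and 7.61% in MHC class II-high cells. The family was mostly Ms4a4b in T and NK cells and Ms4a1 in B cells. Ms4a3 gave 14.3% and 48.6% of it in progenitors and 21.6% and 54.6% in neutrophils. In Disc1 WT/WT, Ms4a6c gave more in progenitors, 68.9%, and Ms4a6b more in neutrophils, 27.9%.

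**Figure D1:**
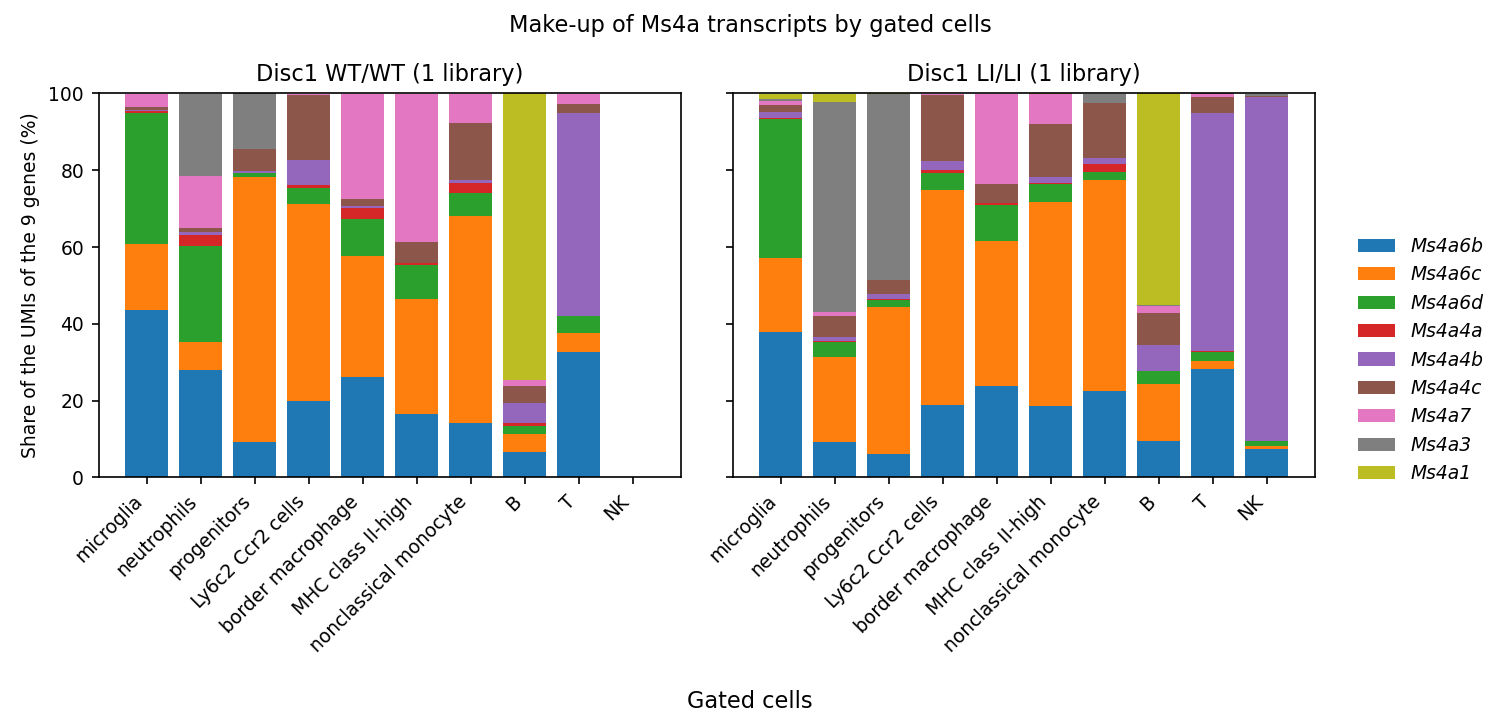
Share of the UMIs of the 9 Ms4a genes (vertical axis, %) that each gene contributed in each class of cells (horizontal axis), with 1 library per genotype in each panel. Microglia are mostly Ms4a6b, Ms4a6d and Ms4a6c in both panels, and Ly6c2 Ccr2 cells mostly Ms4a6c, while the 11 NK cells of Disc1 WT/WT were too few for a bar.

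Ms4a6b (ENSMUSG00000024677, chromosome 19, 11516512 to 11531256) is a myeloid and lymphoid member known from T cells and macrophages. In microglia it was read at 206 CPM in the Disc1 WT/WT library (95% interval 201 to 212) and at 211 in the Disc1 LI/LI library (201 to 221), with a UMI in 53.8% and 52.4% of cells. After each cell was thinned to 1000 UMIs the shares were 18.2% and 18.3%. The 2 libraries therefore gave microglia the same Ms4a6b within counting error, at a log2 ratio of 0.03, with Disc1 LI/LI divided by Disc1 WT/WT (-0.05 to 0.11). The median over 13137 genes was -0.18, and the Ms4a6b ratio was -0.00 with thinned cells. Higher levels were found in border macrophages, at 947 and 741, in Ly6c2 Ccr2 cells, at 557 and 596, and in T cells, at 627 and 481. Neutrophils were lowest among the classes of at least 20 cells, at 46.5 and 28.8. In Disc1 WT/WT the T cells and the Ly6c2 Ccr2 cells did not differ beyond counting error, and neither did microglia and nonclassical monocytes, at 206 and 162.

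Ms4a6d (ENSMUSG00000024679, chromosome 19, 11586604 to 11604849) is a macrophage gene. Of the 3 Ms4a6 genes it alone was higher in microglia than in Ly6c2 Ccr2 cells, in both libraries. Microglia had 163 CPM in the Disc1 WT/WT library (158 to 167) and 202 in the Disc1 LI/LI library (193 to 212), and 49.4% and 52.8% of them held a UMI (15.1% and 18.5% after thinning). Ly6c2 Ccr2 cells had 117 (84.5 to 157) and 138 (130 to 145), which is 0.718 and 0.679 of the microglial level. Border macrophages were higher than microglia in both libraries, at 343 and 287. The ratio between the libraries in microglia was 0.32 on the log2 scale (0.23 to 0.40). In the neutrophils it went the other way, with 28 UMIs or 42.0 CPM in Disc1 WT/WT and 249 UMIs or 11.5 CPM in Disc1 LI/LI (-1.86, -2.43 to -1.24). Neutrophils past no sub-gate had a log2 ratio of -0.56 (-1.73 to 0.92), with 6 UMIs from the Disc1 WT/WT library. The 58 and 2070 neutrophils with at least 1% of UMIs from secondary granule genes had -2.16 (-2.94 to -1.28), on 15 and 117 UMIs.

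Ms4a6c (ENSMUSG00000079419, chromosome 19, 11469366 to 11482192) is a monocyte gene. It was highest in Ly6c2 Ccr2 cells, at 1440 CPM in the Disc1 WT/WT library (1320 to 1568) and 1773 in the Disc1 LI/LI library (1746 to 1801), and 85.4% and 98.0% of these cells held a UMI (70.7% and 81.0% after thinning). In microglia it stood at 81.3 (78.0 to 84.6) and 107 (99.7 to 114), with a UMI in 25.2% and 27.8% (6.70% and 9.67% after thinning). Ly6c2 Ccr2 cells thus held 17.7-fold (16.1 to 19.5) and 16.6-fold (15.5 to 17.8) the microglial level. Progenitors had 1076 and 762, border macrophages 1149 and 1169, and MHC class II-high cells 626 and 1073. Lymphoid cells were far below Ly6c2 Ccr2 cells, with 99.1 and 37.2 CPM in T cells and 62.7 and 136 in B cells. NK cells had 119 and 13.1, from 4 and 2 UMIs. Disc1 LI/LI B cells were above Disc1 LI/LI microglia. In microglia the log2 ratio between the libraries was 0.39 (0.28 to 0.51), and in Ly6c2 Ccr2 cells 0.30 (0.18 to 0.43). Of the windows of 50 bases in the last 1000 bases of its transcript, 8.62% also occurred in Ms4a6b, so reads from these stretches cannot be given to 1 of the 2 genes.

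Microglia of both libraries that also met the border macrophage gate had more of all 3 Ms4a6 genes than those that met no gate for other cells. In the 120 Disc1 WT/WT microglia with border macrophage genes, Ms4a6c was at 436 CPM, Ms4a6b at 496 and Ms4a6d at 237. In the 12 of Disc1 LI/LI they were at 651, 338 and 265, from 54, 28 and 22 UMIs, so the Ms4a6d difference there rests on few UMIs. In the 5971 Disc1 WT/WT microglia past no such gate they were at 68.4, 197 and 161, and in the 1878 of Disc1 LI/LI at 99.3, 207 and 205. Other gates were mixed for Ms4a6d. It was at 217 and 198 CPM in microglia of the MHC class II-high gate, above microglia past no gate in Disc1 WT/WT only. Microglia with B cell genes had 123 and 141, and those with T cell genes 55.9 and 78.2. Ms4a6c had the largest part of its Disc1 WT/WT microglial UMIs in gated cells, 19.8%, against 8.91% for Ms4a6b and 5.67% for Ms4a6d. In 15 and 9 microglia with at least 0.3% of UMIs from interferon-induced genes, Ms4a6b was at 584 and 636 CPM. Ms4a6d stood at 273 and 435 there. Ms4a6c had 286 and 100, the latter from 3 UMIs, against 80.7 and 107 in the remaining microglia. These are few cells.

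**Figure D2:**
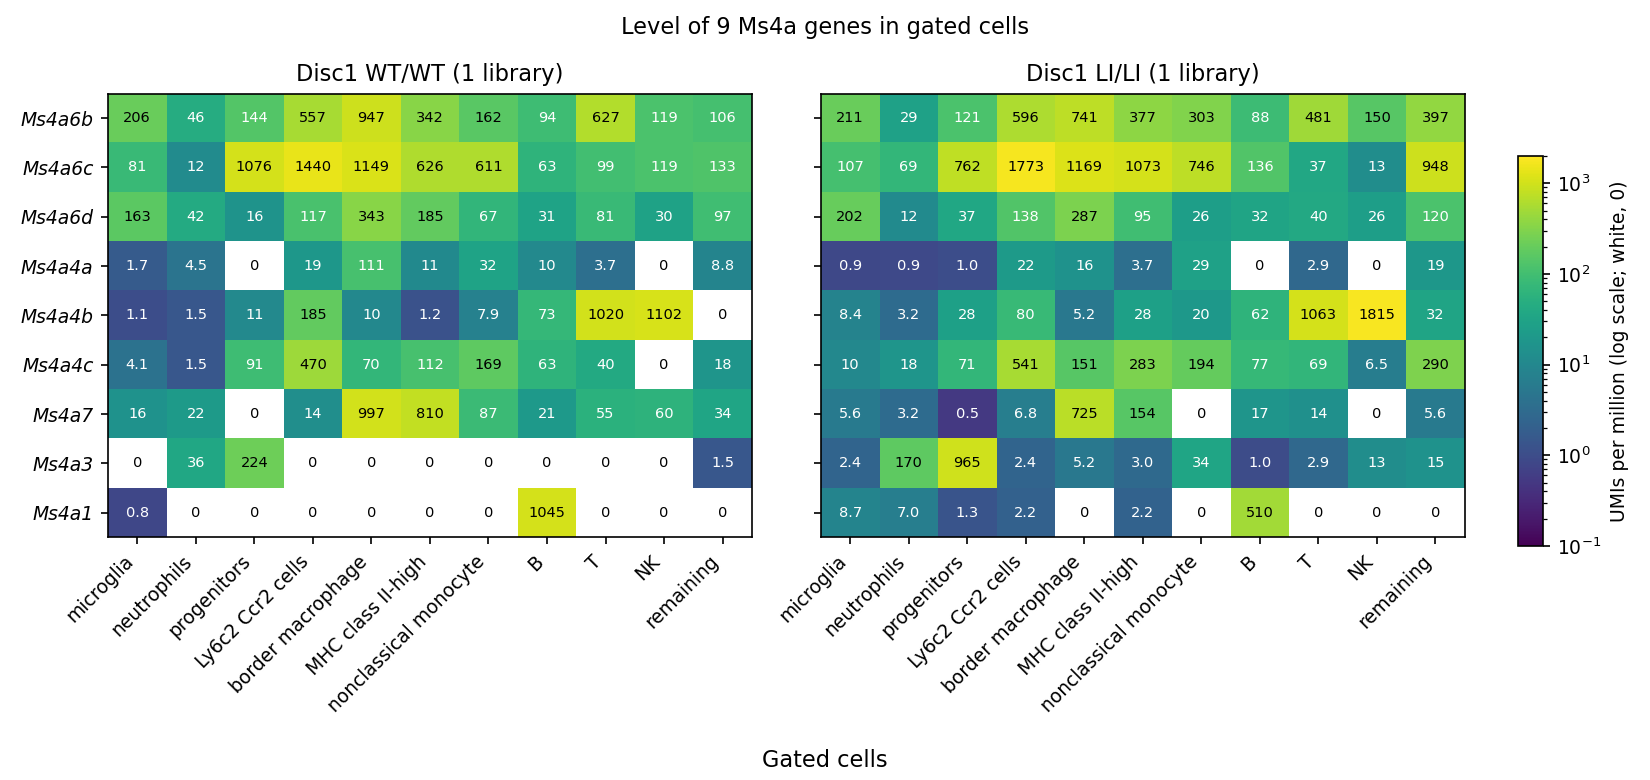
Level of each Ms4a gene (rows) in each class of cells (columns) in CPM, on a log colour scale, with 1 library per genotype in each panel. The Ms4a6 rows are filled across the myeloid classes, with Ms4a6c at 1440 and 1773 in Ly6c2 Ccr2 cells, while Ms4a1 stands out in B cells and Ms4a4b in T and NK cells.

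Ms4a4c (ENSMUSG00000024675, chromosome 19, 11404770 to 11427246) is a leukocyte gene. In Ly6c2 Ccr2 cells it was read at 470 CPM in the Disc1 WT/WT library (403 to 546) and 541 in the Disc1 LI/LI library (526 to 556), and 80.5% and 90.0% of the cells held a UMI. In microglia it was at 4.12 (3.42 to 4.92) and 10.2 (8.09 to 12.6), with a UMI in 1.63% and 2.56% of cells. The Ly6c2 Ccr2 cells were thus 114-fold and 53.3-fold above microglia. Nonclassical monocytes came next in Disc1 WT/WT, at 169, and had 194 in Disc1 LI/LI. Its level followed that of Ms4a6c more closely than any other pair of members did, with Pearson's r of 0.846 over 20 points, each a class in a library, which share libraries and depth.

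Ms4a4b (ENSMUSG00000056290, chromosome 19, 11443553 to 11467055), a T and NK cell gene, was read in all 11 Disc1 WT/WT and all 41 Disc1 LI/LI NK cells, at 1102 (776 to 1519) and 1815 (1608 to 2041) CPM. T cells had 1020 (904 to 1147) and 1063 (958 to 1177), with a UMI in 90.2% and 88.3%. The T cell level was the same in both libraries within counting error (log2 ratio 0.06, -0.17 to 0.29), and the NK level was higher in Disc1 LI/LI (0.72, 0.22 to 1.26). In Ly6c2 Ccr2 cells it was at 185 (143 to 234) and 79.8 (74.1 to 85.8), with a UMI in 48.8% and 36.7%. Part of these UMIs lay in cells that also passed the T or NK gate, 3 and 3 cells in Disc1 WT/WT and 10 and 13 in Disc1 LI/LI, where the levels were 2629 and 981 CPM in Disc1 WT/WT and 923 and 1188 in Disc1 LI/LI. In the 28 and 976 Ly6c2 Ccr2 cells past no sub-gate of any kind the levels were 84.7 and 63.1. The log2 ratio moved from -1.21 (-1.57 to -0.83) to -0.43 (-1.07 to 0.30) there. That step also left out cells of the MHC class II-high, nonclassical monocyte, B cell and border macrophage gates. The NK genes themselves were at a median of 1.06% and 0.371% of their NK level in Ly6c2 Ccr2 cells, and Ms4a4b at 16.8% and 4.40%. The NK genes also set the NK gate, so their NK level was high by selection. The part of T and NK cells in the value left after gating was not tested.

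Ms4a4a (ENSMUSG00000101389, chromosome 19, 11375523 to 11392790), a macrophage gene, had few UMIs in every class. In Disc1 WT/WT it was highest in border macrophages, the resident macrophages of the meninges and vessels, with 87 UMIs in 186 cells or 111 CPM (88.9 to 137), and 29.6% of these cells held a UMI. In Disc1 LI/LI the 42 border macrophages held 3 UMIs, or 15.7 CPM (3.23 to 45.8), and 7.14% held a UMI. The log2 ratio was -2.82 (-5.13 to -1.23), and it was the lowest ratio of the members with at least 10 UMIs in these cells. Nonclassical monocytes had 31.5 and 28.6 CPM and Ly6c2 Ccr2 cells 19.0 (7.65 to 39.2) and 22.2 (19.2 to 25.4), with a UMI in 17.1% and 15.2%. Among Ly6c2 Ccr2 cells the border macrophage genes were at a median of 0 and 0.447% of their border macrophage level, while Ms4a4a was at 17.1% and 142%. The border macrophage genes also set that gate, so their level in border macrophages was high by selection. In Disc1 LI/LI nonclassical monocytes, Ly6c2 Ccr2 cells, the remainder and border macrophages followed each other without a step beyond counting error.

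Ms4a7 (ENSMUSG00000024672, chromosome 19, 11321039 to 11336146), which marks border macrophages and macrophages that enter the brain, was read at 997 CPM (929 to 1070) in Disc1 WT/WT border macrophages and at 725 (610 to 857) in those of Disc1 LI/LI. A UMI was found in 79.6% and 73.8% of them. Next came MHC class II-high cells, at 810 (750 to 874) and 154 (133 to 176), where the log2 ratio was -2.40 (-2.63 to -2.17), with a UMI in 52.8% and 21.1%. Monocytes had little. Ly6c2 Ccr2 cells had 13.6 and 6.85 CPM, and nonclassical monocytes 86.7 CPM in Disc1 WT/WT and a UMI in 0 of 81 cells in Disc1 LI/LI, which at 3 counts allows a share of cells with a UMI of up to 3.70%. In microglia Ms4a7 was at 15.7 (14.3 to 17.2) and 5.63 (4.12 to 7.51), with a UMI in 2.41% and 0.718% of cells (1.04% and 0.310% after thinning).

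The Ms4a7 UMIs of microglia were not spread evenly. Of 149 Disc1 WT/WT microglia with Ms4a7, 85 (57.0%) also passed the border macrophage gate, against 0.580% of the microglia without it, and 68.2% of the UMIs lay in those cells. Adding the other gates brought this to 89.2%, and in Disc1 LI/LI 89.1% of the 46 UMIs lay in gated cells. Microglia past no gate kept 1.79 (1.33 to 2.35) and 0.651 (0.211 to 1.52) CPM. As a share of the border macrophage level this was 0.179% and 0.0897%, next to medians of 0.235% and 0.205% for 6 border macrophage genes. Those 6 genes also set the border macrophage gate, so microglia past no gate were low in them by selection. The medians are therefore no benchmark for Ms4a7. Of the Ms4a4a UMIs of microglia, 40 of 51 in Disc1 WT/WT and 3 of 7 in Disc1 LI/LI lay in the border macrophage gate. The Disc1 LI/LI library held 12 microglia in that gate among 1950 and the Disc1 WT/WT library 120 among 6180, beside a log2 ratio of Ms4a7 in microglia of -1.48 (-1.95 to -1.04). Within the gate the ratio was -0.28 (-0.88 to 0.27). In microglia of the MHC class II-high gate it was -1.45 (-2.02 to -0.93). In microglia past no gate it was -1.46 (-3.14 to -0.14), on 50 and 5 UMIs. The part of gated cells in the microglial ratio was not tested.

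Ms4a3 (ENSMUSG00000024681, chromosome 19, 11629496 to 11640851) was read in few kinds of cells. It held 67 UMIs in 11 Disc1 WT/WT cells and 7465 UMIs in 441 Disc1 LI/LI cells. Of these, 92.5% and 90.9% lay in the 8 and 235 cells in which Mpo, Elane, Prtn3 and Ctsg, the enzymes of the primary granules that neutrophils fill early in their making, gave at least 0.2% of UMIs. The 7 progenitors of Disc1 WT/WT had 224 CPM (161 to 303) and the 166 of Disc1 LI/LI 965 (935 to 997), with a UMI in 71.4% and 65.7% of cells (14.3% and 31.7% after thinning). Its highest count in 1 cell was 178. Microglia of Disc1 WT/WT held 0 UMIs in 6180 cells, which at 3 counts allows a share of cells with a UMI of up to 0.0485%, and those of Disc1 LI/LI 20 UMIs in 20 cells, at most 1 in each. These came to 0.254% of the progenitor level, next to 0.180% to 0.434% for the 4 primary granule genes. Those 4 genes set the progenitor gate, so their progenitor level was high by selection. The range is therefore no benchmark for Ms4a3.

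Neutrophils had 36.0 CPM in the Disc1 WT/WT library and 170 in the Disc1 LI/LI library, and a few of them carried most of it. Of the 3671 Ms4a3 UMIs in Disc1 LI/LI neutrophils, 3077 lay in the 68 that also passed the primary granule gate. When the 3622 Disc1 LI/LI neutrophils were ordered by the share of UMIs from the primary granule genes, Ms4a3 went from 7.99 CPM in the 2253 cells with none to 45.5 in 1161 cells under 0.05%, 136 in 140 cells under 0.2%, 572 in 19 cells under 1% and 1896 in 49 cells at or above 1%. The share of cells with a UMI was 2.22%, 12.5%, 10.0%, 89.5% and 100% in the same order. Genes of later stages did not follow this order. Retnlg, a gene of mature neutrophils, was at 32646 CPM in the cells with no primary granule UMI and at 889 in the highest group, and Camp, a secondary granule gene, was highest in the group from 0.2% to under 1%, at 53429. All these cells came from 1 library, and the group from 0.2% to under 1% held 19 cells.

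**Figure D3:**
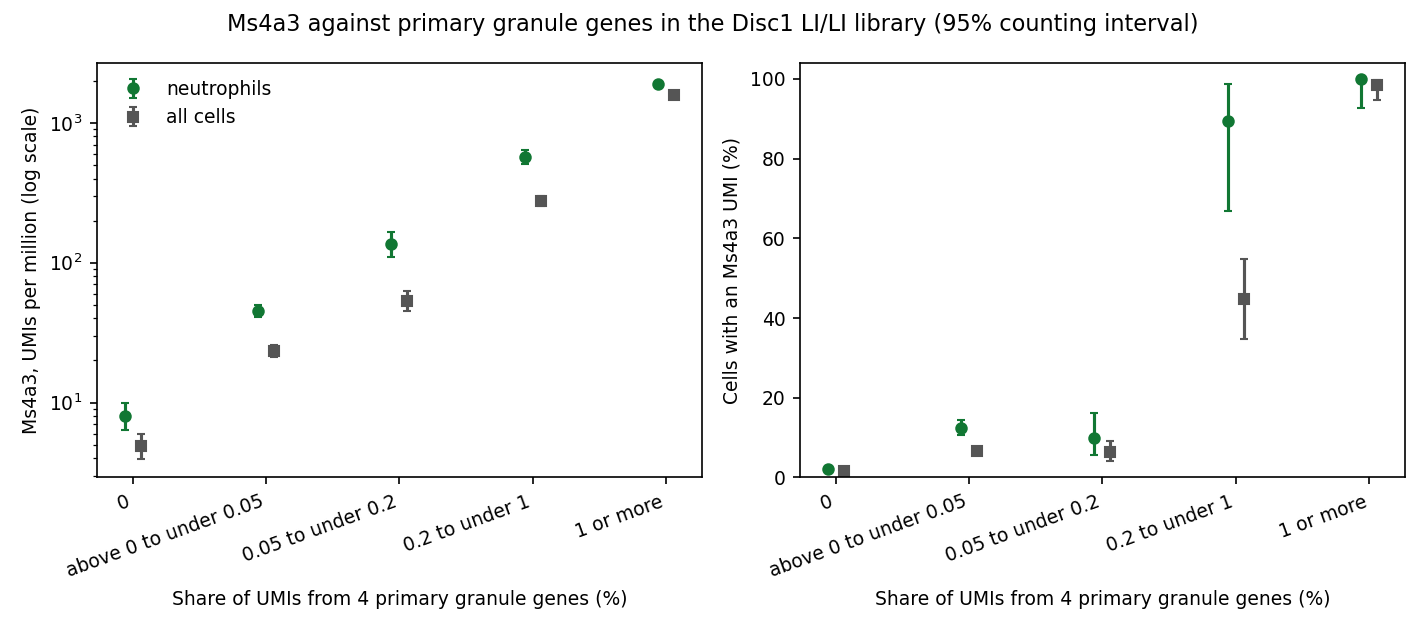
Level of Ms4a3 in CPM (left, log scale) and share of cells with an Ms4a3 UMI in % (right) against the share of UMIs from Mpo, Elane, Prtn3 and Ctsg in 5 ranges (horizontal axis), for neutrophils and for all cells of the Disc1 LI/LI library, with 95% counting intervals. In neutrophils the level goes from 7.99 to 1896 CPM across the ranges.

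Ms4a1 (ENSMUSG00000024673, chromosome 19, 11249675 to 11266241), the CD20 gene, was read in B cells at 1045 CPM in the Disc1 WT/WT library (22 cells, 850 to 1271) and 510 in the Disc1 LI/LI library (175 cells, 467 to 557), with a UMI in 59.1% and 72.6% (54.5% and 41.1% after thinning). The share of cells and the level thus put the libraries in opposite orders, and no order is read from the share. In microglia it was at 0.817 (0.523 to 1.22) and 8.69 (6.79 to 11.0). Of these UMIs, 21 of 24 in Disc1 WT/WT and 69 of 71 in Disc1 LI/LI lay in the 12 and 35 microglia that also passed the B cell gate. Microglia past no gate held 3 UMIs in the Disc1 WT/WT library and 2 in the Disc1 LI/LI library. As a share of the B cell level, Ms4a1 in Disc1 LI/LI microglia was at 1.70% and the 5 B cell genes ranged from 1.50% to 4.76%. Those 5 genes also set the B cell gate, so their B cell level was high by selection and the range is no benchmark. Nearly all Ms4a1 in microglia lay in cells with B cell genes. Ms4a4b showed the same with T cell genes, with 24 of 31 and 61 of 69 of its microglial UMIs in microglia that passed the T cell gate.

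Differences between the libraries within a class were counted at 2-fold or more, for genes with at least 10 UMIs. In microglia 4 of the 9 members were at least 2-fold higher in Disc1 LI/LI, against 3.91% of all genes, and 2 were at least 2-fold lower, against 5.82%. Higher were Ms4a1 (log2 ratio 3.41, 2.73 to 4.14), Ms4a4b (3.00, 2.37 to 3.66), Ms4a4c (1.30, 0.88 to 1.72) and Ms4a3, which was at 0 in Disc1 WT/WT and at least 24.0-fold higher against a floor of 3 UMIs over the class. Lower were Ms4a7 and Ms4a4a (-1.02, -2.40 to 0.13). None of these 6 genes passed 20 CPM in microglia of either library, and most of the UMIs of Ms4a1, Ms4a4b, Ms4a7 and Ms4a4a lay in microglia that passed a gate for other cells. The median log2 ratio of the 9 members was 0.39, beside -0.18 over all genes.

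Among microglia past no gate, 3 of the 8 members with enough UMIs were at least 2-fold higher in Disc1 LI/LI (3.19% of all genes) and 1 was at least 2-fold lower (5.68%). The 3 were Ms4a3, Ms4a4c and Ms4a4b, of which Ms4a4b rested on 3 UMIs in the Disc1 WT/WT library and 7 in the Disc1 LI/LI library (3.09, 0.96 to 5.67). Ms4a7 was again lower. Ms4a4c was at 2.96 and 8.33 CPM in these cells, with up to 15 UMIs in 1 Disc1 LI/LI cell. As a share of its Ly6c2 Ccr2 level it stood at 0.631% and 1.54%, beside medians of 0.121% and 2.89% for 8 monocyte markers. In Disc1 WT/WT only Klf4, at 7.4%, was above Ms4a4c, and the other markers were below it. In Disc1 LI/LI Ms4a4c lay within the range of the markers. Each marker had a higher share in Disc1 LI/LI microglia past no gate. Chil3, Cd177 and Hp among them were not higher in Disc1 LI/LI Ly6c2 Ccr2 cells than in all other cells. The Disc1 LI/LI median is therefore not one of monocyte genes alone. The part of RNA from other cells in the Ms4a4c ratio was not tested.

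**Figure D4:**
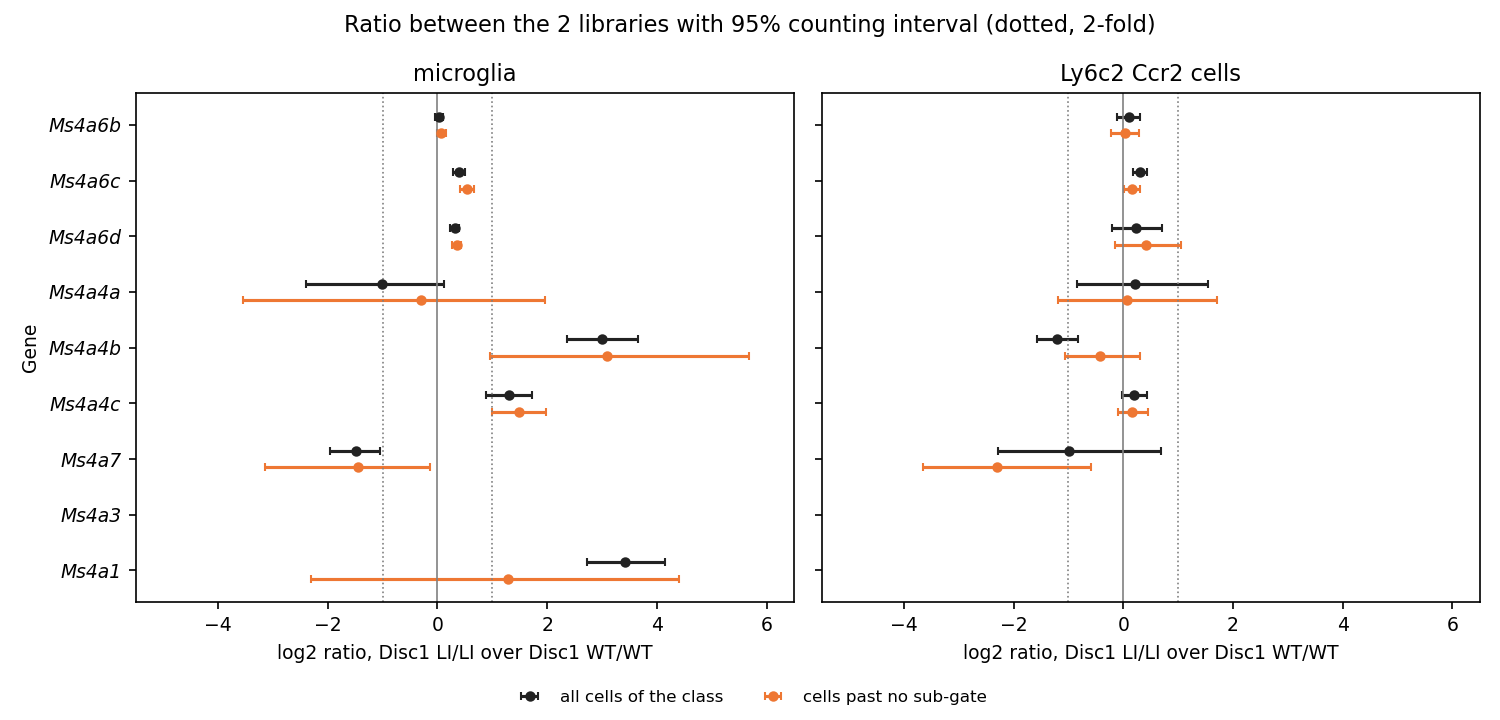
Log2 ratio of the level in Disc1 LI/LI over Disc1 WT/WT (horizontal axis) for each Ms4a gene (rows) in microglia and in Ly6c2 Ccr2 cells, as points with 95% counting intervals, for all cells of the class in black and for cells past no gate for other cells in orange, with dotted lines at 2-fold. Ms4a3, and in Ly6c2 Ccr2 cells Ms4a1, have no point because Disc1 WT/WT was at 0, and the Ms4a6 genes lie inside the dotted lines in both panels.

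Of the 9 members, 0 were at least 2-fold higher in Disc1 LI/LI in Ly6c2 Ccr2 cells (3.48% of all genes) and 1, Ms4a4b, was at least 2-fold lower (18.1%). Past no gate 0 of 8 were higher (4.68%) and 1, Ms4a7, was lower (17%), from 5 UMIs in Disc1 WT/WT. Ms4a6b, Ms4a6c, Ms4a6d, Ms4a4c and Ms4a4a had log2 ratios from 0.10 to 0.30, beside a median of -0.40 over all genes, and those of Ms4a6b, Ms4a6d and Ms4a4a fell below 0 without the 5% of cells with the most UMIs. The Disc1 WT/WT values of this class came from 41 cells. In neutrophils 4 members were at least 2-fold higher (4.7% of all genes), Ms4a3 (2.24, 1.67 to 2.89), Ms4a6c (2.53, 1.55 to 3.74), Ms4a4c and Ms4a4b, and 3 were at least 2-fold lower (24.4%), Ms4a6d, Ms4a7 and Ms4a4a. Ms4a4c and Ms4a4b had 1 UMI each in the 116 Disc1 WT/WT neutrophils. In progenitors 3 of 6 members were at least 2-fold higher (6.72%), with Ms4a3 at 2.11 (1.67 to 2.58) and Ms4a4b and Ms4a6d on 2 and 3 UMIs in Disc1 WT/WT, and 0 were lower (18.9%). All other cells had 3 higher (6.34%), Ms4a1, Ms4a3 and Ms4a4c, and 3 lower (19.5%), Ms4a4a, Ms4a6d and Ms4a7.

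Smaller groups gave mixed directions. Among MHC class II-high cells, Ms4a4b (1 and 38 UMIs) and Ms4a4c (112 and 283 CPM) were at least 2-fold higher in Disc1 LI/LI, 2 of 7 members against 7.32% of all genes, and Ms4a7 and Ms4a4a at least 2-fold lower, against 19.6%. Border macrophages had 1 of 6 members higher, Ms4a4c (5.73%), and 1 lower, Ms4a4a (16.8%), while Ms4a7 was at -0.46 (-0.73 to -0.20) and Ms4a6c at 0.02 (-0.19 to 0.24). In T cells 0 of 6 were higher (4.38%) and 3 lower (20.1%), Ms4a6c, Ms4a6d and Ms4a7. In B cells 1 of 7 was higher (6.54%), Ms4a6c, and 1 lower (25.4%), Ms4a1 (-1.03, -1.35 to -0.71). Nonclassical monocytes had 1 of 7 higher (8.93%), Ms4a3, and 2 lower (16.6%), Ms4a6d and Ms4a7, and NK cells 0 of 2 in either direction (12.5% and 18.5%). Over all cells together Ms4a6d and Ms4a7 were at least 2-fold lower, as 41.9% of genes were, and 5 members at least 2-fold higher (13.8%), in libraries whose make-up of cells differed.

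Within a library, differences between classes were counted at 4-fold or more. Ms4a4a, Ms4a4b, Ms4a4c and Ms4a6c were at least 4-fold higher in Ly6c2 Ccr2 cells than in microglia in both libraries, 4 of 8 members in Disc1 WT/WT (8.38% of all genes) and 4 of 9 in Disc1 LI/LI (8.91%), and 0 were at least 4-fold lower (7.3% and 16.1%). Ms4a6b was 2.70-fold and 2.83-fold higher. Border macrophages were at least 4-fold above microglia for 6 of 8 members in Disc1 WT/WT (5.26% of all genes) and 4 of 9 in Disc1 LI/LI (4.76%), and 0 were at least 4-fold lower (4.01% and 3.54%). Ms4a7 had 63.4-fold and 129-fold the microglial level there and Ms4a4a 63.9-fold and 18.3-fold (3.05 to 80.1), the latter from 3 UMIs in border macrophages and 7 in microglia.

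Free RNA in droplets gives cells UMIs of genes they do not make, so shares of cells were set beside those in neutrophils, which had medians of 4844.5 and 4194 UMIs against 4271 and 3787.5 in microglia. Neutrophils held a UMI of Ms4a6b in 16.4% and 7.10% of cells, of Ms4a6d in 12.1% and 4.11%, and of Ms4a6c in 4.31% and 9.28%, all below the microglial shares. For Ms4a7 neutrophils had 1.72% and 0.497%, close to the 2.41% and 0.718% of microglia. The Disc1 WT/WT share was 2 of 116 cells, whose 15 UMIs all lay in the 3 neutrophils that met the border macrophage gate. It is therefore not read as a level of free RNA. Neutrophils past no sub-gate held 0 and 5 Ms4a7 UMIs. For Ms4a4c all neutrophils together had 0.862% and 3.67%, the latter above the 2.56% of Disc1 LI/LI microglia. Ms4a1 was found in 0 of 116 and 0.773% of neutrophils, and Ms4a3 in 0 of 22 and 0.571% of B cells. Shares of the Ms4a6 genes in microglia stood well above those of neutrophils in both libraries. For Ms4a7, Ms4a4c and Ms4a1 the 95% intervals of the shares in microglia and neutrophils overlapped, with only 116 neutrophils in Disc1 WT/WT. For Ms4a3 those of microglia and B cells overlapped, with only 22 B cells in Disc1 WT/WT. Neutrophils held an Ms4a3 UMI in 4.31% and 7.59% of cells, with intervals above those of microglia in both libraries.

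The genes whose levels were most like each member were sought by Pearson's r of log2(CPM + 1) over 20 points, each a class of at least 20 cells in 1 library, among 6157 genes of at least 50 CPM in at least 1 point. The points share libraries, depth and, in part, the genes that set the gates, so the values are a description. Ms4a1 was most like Fcmr (0.992) and Pax5 (0.985), genes of B cells. Ms4a3 was most like Mpo (0.930), Elane (0.888) and Ctsg (0.886), which define the progenitor gate. Ms4a7 was most like Dab2 (0.925), Pf4 (0.839) and Apoe (0.836), genes of border macrophages. Ms4a4b was most like Ctsw (0.918), a cytotoxic lymphocyte gene, Pkp3 (0.907) and Shisa5 (0.903).

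Of the Ms4a6 genes, Ms4a6c had Mcub (0.938), Ifi207 (0.922) and Rnd3 (0.910), Ms4a6d had Ctsc (0.939), a lysosomal protease gene, Ehd4 (0.910) and Tubb2a (0.908), and Ms4a6b had Bst2 (0.828), an interferon-induced gene, Cd48 (0.826) and Dse (0.820). Ms4a4c came nearest to Eif3k (0.887), S100a4 (0.877) and Crip1 (0.871), and Ms4a4a to Rnf213 (0.865), Hip1 (0.838) and Dnase1l1 (0.829). After Ms4a4c with Ms4a6c, the closest pairs were Ms4a6b with Ms4a6d (0.704), Ms4a6d with Ms4a7 (0.657) and Ms4a4a with Ms4a6c (0.640). Ms4a4b and Ms4a4c, whose promoter windows are alike, had 0.235, and Ms4a6b and Ms4a6c 0.603.

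Of 14 other family genes, 12 were analysed, 5 of them (Ms4a5, Ms4a10, Ms4a12, Ms4a13 and Ms4a18) were at 0 in both libraries, and Ms4a19 and Ms4a20 were not analysed here. Among the 4 with at least 10 UMIs in microglia, 1 (Ms4a8a, 4 and 7 UMIs) was at least 2-fold higher in Disc1 LI/LI, against 3.91% of all genes, and 0 at least 2-fold lower, against 5.82%. Ms4a8a, like Ms4a4c, was higher in Ly6c2 Ccr2 cells than in microglia, with 89.7 and 105 CPM in Ly6c2 Ccr2 cells and 0.136 and 0.857 in microglia. Ms4a2, the beta chain of the IgE receptor of mast cells and basophils, was read in progenitors at 272 CPM in Disc1 WT/WT, from 51 UMIs in 1 of 7 cells, and at 59.4 in Disc1 LI/LI, where 7.83% of cells held a UMI. Its partner Fcer1a was at 90.6 and 73.1 CPM in the same class. The distant relatives Tmem176a and Tmem176b, which lie on chromosome 6, were at 332 and 313 and at 679 and 667 CPM in microglia, with UMIs in 67.2% and 63.8% and in 87.2% and 83.0% of cells.

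Genes of proteins known to act beside MS4A members or other immune receptors were measured for 14 of 15 genes. Among those with at least 10 UMIs in microglia, Cd79a and Tnfrsf18 were at least 2-fold higher in Disc1 LI/LI, and 0 were at least 2-fold lower, against the same 3.91% and 5.82% of all genes. Cd79a, the B cell receptor chain, was at 2.31 and 37.1 CPM, in the same direction as Ms4a1. The partners with high levels in microglia differed by less than 2-fold. Fcer1g was at 3369 and 4132 CPM, Tyrobp at 3175 and 4334, Trem2, a lipid receptor of microglia, at 2418 and 2982, and Cd81 at 3276 and 3814. The proteases Adam10 and Adam17, which shed surface proteins, were at 350 and 247 and at 137 and 113. Cd37 was at 499 and 556, Cd79b at 32.6 and 56.7, and Cdkn3 at 1.84 and 3.30, with 133 and 64.0 in progenitors.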

How the data were processed

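For each genotype 1 library was sequenced from CD45low CD11b+ brain cells pooled over 6 mice aged 23 weeks. The authors made UMI counts per gene and barcode with Cell Ranger (version 6.1.2 in the file header) and its aligner STAR on mm10, and deposited these counts without normalization. The submitters' processing notes also name Seurat 3.0.1.

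Barcodes under 200 genes or over 10% mitochondrial UMIs were left out (6 of 7038 and 17 of 7834), and doublets were not removed. Cells were classed in order as microglia (P2ry12, Gpr34, Tmem119, Siglech, Fcrls and Olfml3 giving at least 0.5% of UMIs, S100a8 and S100a9 under 1%), neutrophils (S100a8 and S100a9 at least 3%), progenitors (Mpo, Elane, Prtn3 and Ctsg at least 0.2%) and Ly6c2 Ccr2 cells (at least 2 and 1 UMIs). In all, 10 and 306 cells met more than 1 of these. The other cells were split by sub-gates of at least 3 marker UMIs for B, T, NK and nonclassical monocyte cells, 5 for border macrophages, 0.5% of UMIs for MHC class II and 10% for hemoglobin genes, with a further sub-gate of 1% from secondary granule genes, and the same sub-gates were used to mark cells inside the classes. UMIs were summed over a class and divided by its total. Levels have exact Poisson and shares exact Clopper-Pearson intervals at 95%, ratios have an interval from the exact binomial, and all cover counting error only. A count of 0 was taken as up to 3 counts. Shares were repeated after thinning each cell to 1000 UMIs, which left out 104 Disc1 WT/WT and 17 Disc1 LI/LI microglia.

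A single library per genotype allows no test between genotypes, and none was made over cells. Values named are those of all 9 members, of the other family genes and partners that reached 50 CPM (UMIs per 1000000) in a class, and of the 3 genes most like each member. A gene among these is not reported here. The members and lists were chosen with earlier results of these data known, and the promoter motifs and the cells past no sub-gate after the values were seen. Gene coordinates are GENCODE's for mm10, with 32158 of 32285 identifiers matched. The ratio was tested on simulated counts for microglia over 13137 genes, where 95.9% of intervals held the true ratio, 99% of 200 genes changed by known folds passed 2-fold and 3.22% of unchanged genes did. Scripts used scipy 1.17.1, numpy 2.4.6 and pandas 2.3.3 in Python 3.11.15, Biopython 1.88 for alignment, matplotlib 3.10.9 for figures and edgeR 4.0.16 in R 4.3.3 for TMM factors.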

Additional observations from a re-analysis of the deposited data

Results flagged for a closer look

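The log2 ratios of 2 genes had the opposite sign in another class than in microglia, with 1 library on each side, and the difference was not tested. Ms4a4b was at 3.00 in microglia and at -1.21 in Ly6c2 Ccr2 cells, where it stood at 185 CPM (Disc1 WT/WT) against 79.8 CPM (Disc1 LI/LI). Ms4a6d was at 0.32 in microglia, at -1.86 in neutrophils and at -1.08 in all other cells. Neutrophils past no sub-gate had -0.56 (-1.73 to 0.92), on 6 UMIs in Disc1 WT/WT, and those of the secondary granule sub-gate -2.16 (-2.94 to -1.28). The other cells are a mixture, with Ms4a6d at 0.31 in the remainder, 0.05 in B cells and -0.26 (-0.70 to 0.17) in border macrophages.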

How the results depend on the processing

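No paired analysis was possible because each genotype has 1 library and no result comes from a test. The numbers of members past 2-fold changed with some settings. In microglia the 4 members higher in Disc1 LI/LI became 2 with a microglia gate at 1% of UMIs, 2 with the mean over cells of per-cell values and 2 with cells thinned to 1000 UMIs. The 2 lower members became 1 when cells needed 500 genes and no more than 5% mitochondrial UMIs, 1 with TMM factors, 1 after thinning, 1 with the 5% of cells with the most UMIs left out and 1 in cells past no sub-gate, which was added after the data were seen. In Ly6c2 Ccr2 cells the 0 higher members became 1 after thinning, and the 1 lower member became 0 with TMM factors, 2 with the mean over cells and 2 with the 5% of cells with the most UMIs left out. In all, 52 of 64 such values stayed, and of 195 ratios and shares of single members 144 stayed, 50 moved and 1 ratio past 2-fold changed sign, Ms4a4a in microglia, from -1.02 to 0.43 after thinning. Some ratios under 2-fold also changed sign, Ms4a6b in microglia and, in Ly6c2 Ccr2 cells, Ms4a4a (down to -0.33), Ms4a6b (-0.14) and Ms4a6d (-0.16). Over the alternatives the microglial log2 ratio lay between -0.00 and 0.16 for Ms4a6b, 0.27 and 0.54 for Ms4a6c, 0.30 and 0.45 for Ms4a6d, 0.50 and 1.49 for Ms4a4c, 0.53 and 3.86 for Ms4a4b and -2.98 and -1.30 for Ms4a7. TMM factors moved the log2 ratios of every gene up by 0.13 in microglia and 0.37 in Ly6c2 Ccr2 cells. Ms4a4a, Ms4a1, Ms4a3 and Ms4a4b had at most 71 UMIs in the microglia of a library, and the 7 progenitors and 41 Ly6c2 Ccr2 cells of Disc1 WT/WT limit their ratios.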
